A study of Mus musculus with 11 samples.

Results

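The transcripts of 10 genes at the output end of the Hippo pathway were followed across 11 RNA-seq libraries of mouse mammary epithelial cells. They comprised the co-activators *Yap1* and *Wwtr1* (which encodes TAZ), the DNA-binding partners *Tead1*, *Tead2*, *Tead3* and *Tead4*, and 4 widely used target genes of the complex, *Ctgf*, *Cyr61*, *Ankrd1* and *Amotl2*. The genes were chosen by their role in the pathway from the 27179 genes counted, with earlier results of these data known. All 10 passed the filter on low counts that 15422 genes passed. Their levels are given as CPM, counts scaled to library size, after TMM scaling, a correction for differences in RNA composition between libraries.

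The study sorted 3 populations from the mammary glands of wild-type virgin FVB/N females, labelled as 8 weeks old. CD24+CD29hi cells formed the MaSC/basal population, which holds myoepithelial cells together with the mammary stem cells, CD24+CD29loCD61+ cells the luminal progenitors (LP), and CD24+CD29loCD61- cells the mature luminal population (ML), with 3 libraries each. A mammosphere library was made from MaSC/basal cells kept non-adherent for a week in a medium with EGF, bFGF and B27. The last library came from Comma Dβ cells, 1 established line from the mammary gland of Balb/c mice at mid-pregnancy, whose state need not be that of cells in the gland. Replicate numbers only name the libraries. MaSC/basal 1, LP 1, ML 1 and the mammosphere library belonged to batch 1 of the labels, MaSC/basal 2, MaSC/basal 3, LP 2 and ML 2 to batch 2, and LP 3, ML 3 and Comma Dβ to batch 3. The submitted name of MaSC/basal 1 contains p53 although its labels give the wild type, and the mammosphere name may join more than 1 culture.

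Between 19958838 and 75795034 reads were counted per library. The floor was set at 3 reads, an approximate upper limit for an observed count of 0, which were worth 0.0399 to 0.160 CPM. The sorted libraries carried the basal or luminal markers of their labels. The summed level of 5 basal markers (*Krt5*, *Krt14*, *Trp63*, *Acta2* and *Myh11*) was 15222 to 20988 CPM in the MaSC/basal libraries and 53.8 to 349 CPM in the 6 luminal libraries, with ML 3 at the top of the luminal range, and that of 5 luminal markers was 1401 to 1691 CPM in the MaSC/basal and 12758 to 16391 CPM in the luminal libraries. The LP markers *Kit*, *Elf5*, *Itgb3* and *Aldh1a3* summed to 1223 to 1613 CPM in the LP and 295 to 687 CPM in the ML libraries. The ML markers *Esr1*, *Pgr*, *Prlr* and *Foxa1* summed to 641 to 1561 CPM and 3540 to 5944 CPM. Of the ML libraries, ML 2 had the highest sum of LP markers and the lowest sum of ML markers. Comma Dβ cells carried 1507 CPM of the basal and only 211 CPM of the luminal markers.

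The Hippo pathway is a kinase cascade that restrains tissue growth in response to cell contact, polarity and mechanical tension. Its kinases *Lats1* and *Lats2* phosphorylate YAP and TAZ, which are then held in the cytoplasm or degraded, and the unphosphorylated proteins enter the nucleus and bind TEAD factors to switch on target genes. Activity is set largely by phosphorylation and localisation of the proteins, neither of which RNA-seq reads. In the mammary gland YAP and TAZ have been linked to the basal cell state and both proteins respond to the stiffness of the surface that cells grow on.

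TEAD factors bind the core motif GGAATG, whose reverse complement is CATTCC. RefSeq windows of the bases around the transcript start (GRCm38.p6) were at hand for 7 of the 10 genes. The motif was searched on both strands in the 250 bases before each start. At least 1 window of *Yap1*, *Wwtr1*, *Tead3*, *Cyr61*, *Ankrd1* and *Amotl2* held it, whereas that of *Tead2* did not, and 8 of the 10 windows of these 7 genes held it against 12.6% of all 32851 windows of that length. Several windows of 1 gene overlap and are not independent. The upstream stretches of *Yap1* (chr9:8004597-8004846, minus strand), *Wwtr1* (chr3:57575911-57576160, minus strand) and *Cyr61* (chr3:145649986-145650235, minus strand) are shown because they cover both co-activators and the target with the highest level here, with the motif in capitals. Its first base lay 141, 136 and 103 bases before the start.
Yap1: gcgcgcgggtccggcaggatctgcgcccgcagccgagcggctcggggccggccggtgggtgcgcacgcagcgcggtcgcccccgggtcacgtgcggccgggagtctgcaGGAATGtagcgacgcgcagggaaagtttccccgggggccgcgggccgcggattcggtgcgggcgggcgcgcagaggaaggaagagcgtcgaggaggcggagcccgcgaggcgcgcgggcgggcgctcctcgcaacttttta
Wwtr1: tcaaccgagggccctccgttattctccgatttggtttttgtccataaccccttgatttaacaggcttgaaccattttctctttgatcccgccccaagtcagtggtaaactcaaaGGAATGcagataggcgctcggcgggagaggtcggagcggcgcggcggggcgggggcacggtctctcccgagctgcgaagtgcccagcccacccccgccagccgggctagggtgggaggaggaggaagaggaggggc
Cyr61: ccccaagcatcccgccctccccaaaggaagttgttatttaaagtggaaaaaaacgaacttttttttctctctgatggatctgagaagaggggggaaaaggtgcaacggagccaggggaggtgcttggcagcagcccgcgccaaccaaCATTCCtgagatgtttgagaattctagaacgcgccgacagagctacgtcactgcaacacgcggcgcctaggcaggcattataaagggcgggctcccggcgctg

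In the stretches of *Ankrd1* and *Amotl2*, 250 and 136 of 250 bases lie in GENCODE exons on the same strand. Only 30 bases around each motif are therefore shown, to complete the target genes that had a window. In the *Yap1* stretch above, 17 bases lie in an exon on the other strand. *Ankrd1* held the motif at chr19:36120037-36120066 and chr19:36119950-36119979 on the minus strand, and *Amotl2* at chr9:102717727-102717756 on the plus strand. A match describes these letters and is not a binding site.
Ankrd1: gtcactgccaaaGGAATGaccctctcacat
Ankrd1: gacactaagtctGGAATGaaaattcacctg
Amotl2: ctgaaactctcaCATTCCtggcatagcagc

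The transcript of *Yap1* was a basal one among the sorted cells, whereas that of its paralog *Wwtr1* was shared by MaSC/basal and LP cells and low in ML cells. *Yap1* stood at 439.6, 489 and 521 CPM in MaSC/basal 1, 2 and 3, at 139, 169 and 142 CPM in the LP libraries and at 148, 183 and 162 CPM in the ML libraries. Every MaSC/basal library lay above every luminal library, and LP and ML overlapped. By edgeR's quasi-likelihood test with Benjamini-Hochberg adjustment over all genes tested, *Yap1* was 3.22-fold higher in MaSC/basal than in LP cells (log2 fold change 1.69, SE 0.15, adjusted p = 7.14e-06) and, relative to ML cells, 2.94-fold higher (1.56, SE 0.15, adjusted p = 1.05e-05). The difference of LP from ML did not pass the test (-0.13, SE 0.14, adjusted p = 0.520). As these are bulk samples, fewer cells of a type and less RNA per cell cannot be told apart, here or in any later comparison.

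*Wwtr1* stood at 273, 314 and 347 CPM in the MaSC/basal, 278, 287 and 268 CPM in the LP and 139, 205 and 144 CPM in the ML libraries. MaSC/basal and LP overlapped, and all 6 of their libraries lay above all 3 ML libraries, of which ML 2 was the highest. The edgeR test put *Wwtr1* 1.92-fold higher in MaSC/basal than in ML cells (log2 fold change 0.94, SE 0.17, adjusted p = 0.000986) and 1.71-fold higher in LP than in ML cells (0.77, SE 0.17, adjusted p = 0.00869). The difference of MaSC/basal from LP cells did not pass (0.17, SE 0.17, adjusted p = 0.433), and within batch 1 the sign was the opposite of that in batch 2, with log2 differences of -0.024 and 0.20. The proportion of the co-activators differed between the populations. Expressed per length of gene, log2 of *Wwtr1* over *Yap1* was 0.70 ± 0.12 in LP cells, -0.23 ± 0.18 in ML cells and -0.83 ± 0.05 in the MaSC/basal population (SD, n = 3), with no overlap between the 3 populations. *Wwtr1* was thus the higher of the pair in every LP library and the lower in every MaSC/basal and ML library, although in ML 2 its CPM was the higher.

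The 4 TEAD genes, which encode closely related factors with the same DNA-binding domain, went in opposite directions. *Tead1* was the basal member. It stood at 371, 479 and 488 CPM in the MaSC/basal, 114, 122 and 108 CPM in the LP and 79.2, 104 and 79.1 CPM in the ML libraries. No MaSC/basal library approached a luminal one, and every LP library lay above every ML library. The edgeR fold over LP cells was 3.88 (log2 fold change 1.96, SE 0.17, adjusted p = 6.20e-06), and that over ML cells 5.10 (2.35, SE 0.17, adjusted p = 1.87e-06). The step from LP to ML did not pass the test (0.39, SE 0.16, adjusted p = 0.0910), but did so with a replicate block for the library batch (0.40, adjusted p = 0.0291), with the DESeq2 Wald test (0.41, adjusted p = 0.0499) and without ML 2 (0.53, adjusted p = 0.0371).

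*Tead2* and *Tead4* were luminal. *Tead2*, best known from the embryo, stood at 25.5, 31.0 and 20.4 CPM in the MaSC/basal, 215, 166 and 189 CPM in the LP and 235, 187 and 227 CPM in the ML libraries. All luminal libraries exceeded all MaSC/basal libraries by more than 5-fold, and LP and ML overlapped. The edgeR folds were 7.42 towards LP (log2 fold change -2.89, SE 0.19, adjusted p = 1.18e-06) and 8.46 towards ML cells (-3.08, SE 0.19, adjusted p = 7.15e-07), while that of LP from ML did not pass (-0.19, SE 0.17, adjusted p = 0.437).

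*Tead4*, required for the first lineage choice of the embryo, was by far the scarcest. It stood at 0.967, 1.26 and 1.88 CPM (57, 63 and 100 counted reads) in the MaSC/basal, 14.1, 15.6 and 16.3 CPM in the LP and 9.08, 9.26 and 8.52 CPM in the ML libraries. The 3 populations did not overlap, and their order was LP, ML, MaSC/basal. The edgeR folds were 11.2 towards LP (log2 fold change -3.49, SE 0.24, adjusted p = 1.73e-06) and 6.55 towards ML cells (-2.71, SE 0.24, adjusted p = 6.30e-06). The difference of LP from ML was 1.71-fold (0.77, SE 0.22, adjusted p = 0.0228), a call that was lost without ML 1, LP 2, ML 3 or LP 3 (adjusted p = 0.0637, 0.0556, 0.0662 and 0.0564).

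*Tead3* varied least of the family between basal and luminal cells. Its level was 79.4, 81.4 and 84.5 CPM in the MaSC/basal, 43.9, 36.1 and 53.9 CPM in the LP and 69.0, 61.6 and 91.9 CPM in the ML libraries. LP was the low population, below every MaSC/basal and every ML library, and the other two overlapped. By the edgeR test it was 1.83-fold higher in MaSC/basal than in LP cells (log2 fold change 0.88, SE 0.18, adjusted p = 0.00226) and 1.66-fold higher in ML than in LP cells (log2 of LP over ML -0.73, SE 0.18, adjusted p = 0.0140). The latter call was lost without LP 1 or LP 2 (adjusted p = 0.0504 and 0.0578). MaSC/basal against ML did not pass (0.14, SE 0.18, adjusted p = 0.523), but did so with a replicate block for the library batch (0.34, adjusted p = 0.0408).

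Counts per length of gene allowed the TEAD transcripts to be compared with each other. In MaSC/basal cells *Tead1* made up 52.8% ± 3.59 of the summed TEAD level and *Tead2* 14.4% ± 2.90, whereas in LP cells *Tead2* made up 74.0% ± 2.45 and *Tead1* 9.61% ± 1.50, and in ML cells 73.7% ± 2.55 and 6.45% ± 1.81 (SD, n = 3). *Tead3* was the second member in every sorted library but LP 2, where *Tead1* was, at 32.3% ± 2.37, 12.2% ± 1.99 and 17.7% ± 2.51. *Tead4* contributed 4.15% ± 0.624 to the LP, 2.12% ± 0.309 to the ML and 0.522% ± 0.156 to the MaSC/basal sum. The sum itself ranged from 76.0 to 90.2 RPKM (CPM per kb) in MaSC/basal and from 108 to 149 in the luminal libraries. Without division by length this order was reversed. The sum was then 476 to 595 CPM in MaSC/basal, 339 to 387 CPM in LP and 362 to 407 CPM in ML libraries. *Tead1* exceeded *Tead2* in every MaSC/basal library and *Tead2* exceeded *Tead1* in every luminal library, with or without division by length, but the shares depend on the deposited lengths, since *Tead1* is given as 9962 bases and *Tead2* as 2115. Without division by length *Tead1* took 80.2%, 31.6% and 22.8% and *Tead2* 4.67%, 51.9% and 55.8% of TEAD counts in the populations, taken in the order MaSC/basal, LP, ML. How reads that match several genes were counted is not given in the sources used here, and the TEAD genes are paralogs.

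**Figure D1:**
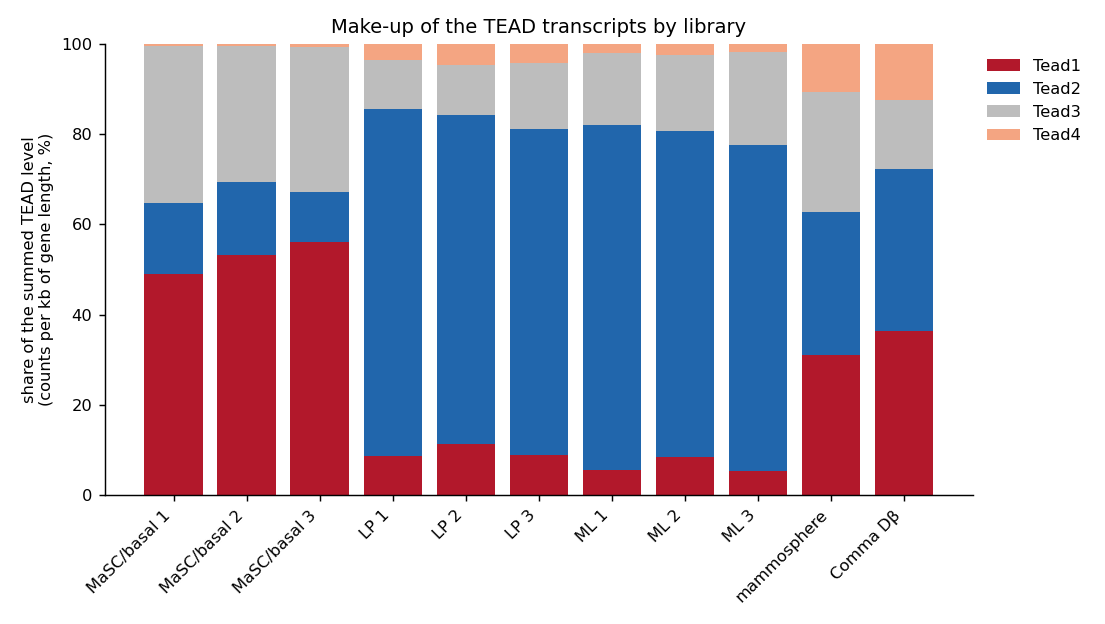
Share of *Tead1*, *Tead2*, *Tead3* and *Tead4* in the summed level of the 4 genes, in counts per kb of gene length, as a stacked bar from 0 to 100% for each of the 11 libraries. *Tead1* takes 49.0% to 56.1% of the 3 MaSC/basal bars and 5.33% to 11.3% of the 6 luminal bars, *Tead2* takes 72.2% to 76.8% of the luminal bars, and both cultures have similar shares of *Tead1* and *Tead2*.

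The target genes did not share 1 pattern. *Ctgf* and *Cyr61*, matricellular proteins of one family that bind integrins, were highest in different populations. *Ctgf* stood at 496, 673 and 984 CPM in the MaSC/basal, 112, 37.2 and 108 CPM in the LP and 29.8, 26.6 and 44.5 CPM in the ML libraries. MaSC/basal libraries exceeded all others, and LP 2 fell within the ML range. By the edgeR test *Ctgf* was 8.38-fold higher in MaSC/basal than in LP cells (log2 fold change 3.07, SE 0.43, adjusted p = 0.000182) and 21.4-fold higher than in ML cells (4.42, SE 0.46, adjusted p = 2.07e-05). The 2.55-fold difference of LP from ML (1.35, SE 0.41, adjusted p = 0.0309) was lost without LP 1, ML 1, ML 2 or LP 3 (adjusted p = 0.0932, 0.0918, 0.0805 and 0.0832). Endothelial cells and pericytes also make *Ctgf*. The sort gates were drawn on lineage-negative cells, and the antibodies of the study include CD31 (*Pecam1*), a marker of endothelial cells. The summed level of *Pecam1*, *Cdh5*, *Kdr* and *Tek* was 40.4 to 82.8 CPM in the MaSC/basal and 7.10 to 34.7 CPM in the luminal libraries, all 4 above 0 everywhere, with 3 of 4 called higher in MaSC/basal than LP cells, and the pericyte genes *Rgs5*, *Pdgfrb*, *Cspg4* and *Notch3*, also above 0 everywhere, summed to 47.9 to 69.7 and 228 to 341 CPM. *Notch3* supplied most of the luminal sum, and the other 3 were called higher in MaSC/basal than LP cells. The part of such cells in the level of *Ctgf* was not tested.

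*Cyr61* reached the highest level of all 10 genes. It stood at 494, 634 and 505 CPM in the MaSC/basal, 3347, 1725 and 4316 CPM in the LP and 905, 701 and 1017 CPM in the ML libraries. The populations did not overlap, and the order was LP, ML, MaSC/basal, with LP 2 well below the other LP libraries. LP cells exceeded MaSC/basal cells 5.75-fold (log2 of MaSC/basal over LP -2.52, SE 0.32, adjusted p = 9.14e-05) and ML cells 3.58-fold (1.84, SE 0.31, adjusted p = 0.00262) by the edgeR test. The difference of MaSC/basal from ML cells did not pass (-0.68, SE 0.31, adjusted p = 0.0785), although the adjusted p was 0.0490 by the DESeq2 Wald test and 0.0200 by edgeR without LP 2. Per length of gene, log2 of *Cyr61* over *Ctgf* was 5.50 ± 0.32 in LP cells, 4.96 ± 0.21 in ML cells and -0.11 ± 0.53 in the MaSC/basal population (SD, n = 3), a ratio taken up only once the values were known. This log2 ratio was 0.24, 0.16 and -0.72 in MaSC/basal 1, 2 and 3, whereas the pair was more than 25-fold apart in every luminal library.

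*Ankrd1*, a nuclear ankyrin-repeat protein of muscle and a sensitive YAP target in culture, was scarce in the sorted populations. It stood at 5.31, 9.42 and 2.77 CPM in the MaSC/basal, 0.952, 0.131 and 1.28 CPM in the LP and 0.509, 0.385 and 0.501 CPM in the ML libraries, the luminal values resting on 7 to 29 counted reads. Each MaSC/basal library lay above each luminal library. The edgeR test gave 8.46-fold higher levels than in LP cells (log2 fold change 3.08, SE 0.65, adjusted p = 0.00237) and 12.8-fold higher levels than in ML cells (3.68, SE 0.66, adjusted p = 0.000797). Without LP 2, which had 7 reads, the first became 2.39 on the log2 scale (adjusted p = 0.00346). The difference of LP from ML did not pass (0.60, SE 0.76, adjusted p = 0.578).

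*Amotl2*, an angiomotin that binds YAP at junctions and is itself induced by it, differed past the test in 1 of the 3 comparisons. It stood at 72.6, 116 and 45.6 CPM in the MaSC/basal, 254, 96.3 and 169 CPM in the LP and 127, 75.3 and 101 CPM in the ML libraries. All 3 populations overlapped. It passed the edgeR test as 2.22-fold higher in LP than in MaSC/basal cells (log2 of MaSC/basal over LP -1.15, SE 0.39, adjusted p = 0.0297). With the replicate block the difference was -0.92 (adjusted p = 0.0946), and without LP 1, MaSC/basal 1, MaSC/basal 3 or LP 3 the adjusted p was 0.120, 0.0910, 0.0954 and 0.0558. Neither MaSC/basal against ML (-0.37, SE 0.39, adjusted p = 0.437) nor LP against ML (0.78, SE 0.39, adjusted p = 0.157) passed.

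**Figure D2:**
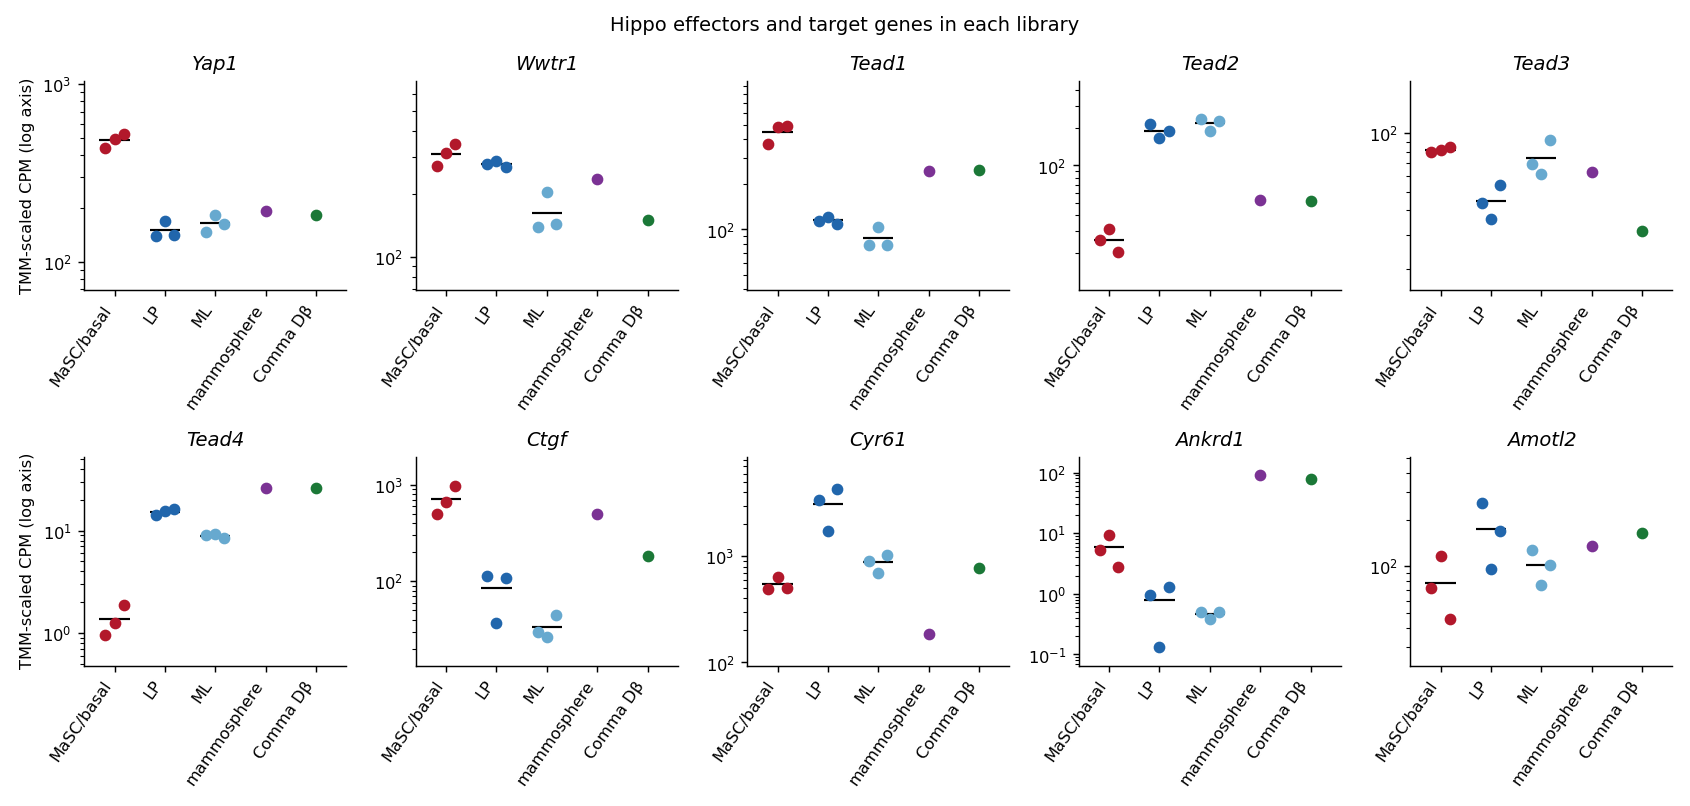
TMM-scaled CPM on a log axis for each of the 10 genes, 1 point per library and a black line at the mean of 3 libraries, in MaSC/basal, LP, ML, mammosphere and Comma Dβ cells. *Yap1*, *Tead1*, *Ctgf* and *Ankrd1* are highest among sorted cells in the 3 MaSC/basal libraries, *Tead2*, *Tead4* and *Cyr61* lowest there, and *Tead4* and *Ankrd1* are highest of all in the 2 cultures.

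*Cyr61*, *Ctgf* and other YAP/TAZ targets can also be switched on rapidly by stimuli that induce immediate early genes. The summed level of 8 such genes (*Fos*, *Fosb*, *Jun*, *Junb*, *Egr1*, *Atf3*, *Ier2* and *Dusp1*) was 10826, 17549 and 6023 CPM in MaSC/basal 1, 2 and 3, 28909, 12679 and 26669 CPM in the LP and 21399, 14134 and 21928 CPM in the ML libraries, against 881 CPM in the mammosphere and 1898 CPM in the Comma Dβ library. LP 2 had the lowest sum of the LP libraries and also the lowest *Ctgf*, *Cyr61*, *Ankrd1* and *Amotl2*. *Amotl2* followed the order of the sums within MaSC/basal and within LP, but not within ML. *Ctgf* followed that order within LP and within ML, but not within MaSC/basal. Its highest level was in MaSC/basal 3, which had the lowest sum of all sorted libraries. *Cyr61* followed the order of the sums within ML, but not within MaSC/basal or within LP. *Ankrd1* followed it within MaSC/basal, but not within LP or within ML. *Jun*, *Fosb* and *Atf3* were higher in LP than in MaSC/basal cells by the edgeR test (log2 of MaSC/basal over LP -1.72, -1.34 and -1.23, adjusted p = 0.00360, 0.0120 and 0.0465), and *Jun* and *Fosb* were higher in ML cells (-1.68 and -1.09, adjusted p = 0.00381 and 0.0292). *Dusp1* went the other way in both (0.86 and 1.05, adjusted p = 0.00877 and 0.00275). The part of these genes' induction in the levels of the targets was not tested.

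In all, 9 of the 10 genes passed the edgeR test at an adjusted p under 0.05 when LP and MaSC/basal cells were compared, where 57.4% of all genes tested were called. Of these, 5 were higher in MaSC/basal (*Yap1*, *Tead1*, *Tead3*, *Ctgf* and *Ankrd1*, with 29.4% of all genes called in that direction) and 4 higher in LP cells (*Tead2*, *Tead4*, *Cyr61* and *Amotl2*, with 28.0%). Between MaSC/basal and ML cells 7 genes passed, where 58.7% of all genes were called, 5 higher in MaSC/basal (28.9% of all genes) and 2 higher in ML cells (29.7%). Between LP and ML cells 5 passed, where 31.8% of all genes were called, 4 higher in LP (14.3% of all genes) and 1 higher in ML cells (17.5%). With a fold change above 2 also required, 8, 6 and 2 genes passed, against 36.4%, 37.8% and 16.8% of all genes. The median log2 difference of the 10 genes was 0.52, 0.54 and 0.69 in the 3 comparisons, and that of all genes -0.01 in each. Among the genes called, the direction was the same within every batch that held both populations (9 of 9, 7 of 7 and 5 of 5). Where populations do not overlap this must be so. Only *Amotl2* between MaSC/basal and LP cells and *Ctgf* between LP and ML cells could have differed. Without TMM scaling the median of all genes moved by 0.15 between MaSC/basal and LP cells and by -0.17 between LP and ML cells, and the genes called between LP and ML cells went from 2204 higher in LP and 2695 higher in ML to 1581 and 3798. None of the 10 genes changed direction in the 17 alternatives run for these comparisons, and of the differences not called, that of *Wwtr1* between MaSC/basal and LP cells and that of *Ankrd1* between LP and ML cells had opposite signs in different batches.

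**Figure D3:**
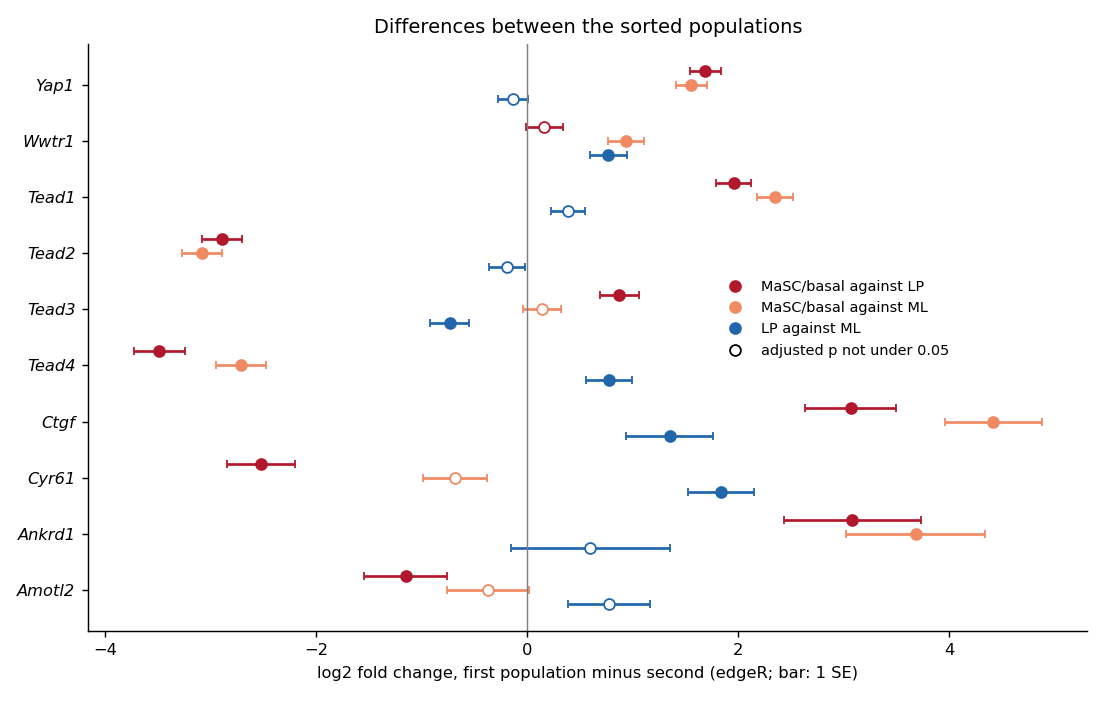
Log2 fold change of each of the 10 genes in the 3 comparisons of sorted populations, first population minus second, with bars of 1 SE and open symbols where the edgeR adjusted p was not under 0.05. *Yap1*, *Tead1*, *Ctgf* and *Ankrd1* lie to the right in both comparisons with MaSC/basal cells and *Tead2* and *Tead4* to the left, while *Cyr61* separates LP from the other populations.

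As a test that assumes no distribution, MaSC/basal libraries were compared with the 6 luminal libraries over all 84 assignments. The exact two-sided permutation p was 0.0119, the smallest that this design allows, for *Yap1*, *Tead1*, *Tead2*, *Tead4*, *Ctgf* and *Ankrd1* (adjusted over all genes, 0.0308), and 0.0476 for *Cyr61* (0.0861 after adjustment). *Wwtr1* and *Tead3* had an exact p of 0.107 and *Amotl2* of 0.131. Thus 7 of 10 genes were under 0.05 before adjustment, against 55.3% of all genes, and in the same 7 no MaSC/basal library overlapped a luminal one, against 49.0% of all genes. The p of *Cyr61* rose to between 0.0536 and 0.107 on leaving out any 1 library other than ML 2, and that of *Tead3* fell to 0.0357 without ML 3.

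Both cultures had *Tead4* and *Ankrd1* levels beyond those of any sorted library and *Yap1* below that of every MaSC/basal library. With 1 library each, no test was made, and differences are given as log2 CPM minus the mean of the 3 MaSC/basal libraries. *Tead4* stood at 26.1 CPM in the mammosphere and 26.2 CPM in the Comma Dβ library, differences of 4.26 and 4.27. *Ankrd1* stood at 91.2 and 78.0 CPM, differences of 4.13 and 3.90. The lineage markers also differed from those of MaSC/basal cells. The 5 basal markers summed to 3354 CPM in mammospheres, below the MaSC/basal libraries, and the 5 luminal markers to 3151 CPM, above them. The LP markers *Kit*, *Elf5*, *Itgb3* and *Aldh1a3* summed to 422 CPM in mammospheres, against 89.4 to 96.5 CPM in MaSC/basal libraries, and to 46.8 CPM in Comma Dβ cells. Their part in the levels of the 10 genes was not tested. *Tead2* was at 53.0 and 51.8 CPM, between the MaSC/basal and the luminal range, with differences of 1.07 and 1.03.

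*Yap1* was lower in both cultures, at 193 CPM in the mammosphere and 184 CPM in the Comma Dβ library, just above the luminal range, with differences of -1.32 and -1.39. *Tead1* was at 245 and 248 CPM, between the MaSC/basal and luminal ranges, with differences of -0.85 and -0.84. *Wwtr1* was at 237 and 150.0 CPM (-0.39 and -1.05) and *Tead3* at 62.9 and 31.4 CPM (-0.38 and -1.38), the last below all 9 sorted libraries. By length, log2 of *Wwtr1* over *Yap1* was 0.096 and -0.50. By the same measure *Tead1* and *Tead2* shared the TEAD level about evenly, at 31.1% and 31.7% in mammospheres and 36.4% and 35.8% in Comma Dβ cells. The even split rests on the deposited lengths, since *Tead1* was at 245 and 248 CPM and *Tead2* at 53.0 and 51.8 CPM. *Tead4* took 10.7% and 12.5% per length. The *Tead4* share exceeded that of every sorted library.

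The matricellular targets parted between the cultures. *Ctgf* stood in mammospheres at 495 CPM, almost the level of the lowest MaSC/basal library (difference from the mean -0.48), and was at 184 CPM in Comma Dβ cells (-1.91), still above every luminal library. *Cyr61* was at 187 CPM in mammospheres (-1.53), below all 9 sorted libraries, and at 769 CPM in Comma Dβ cells (0.51). *Amotl2* was at 136 and 164 CPM (0.90 and 1.17). Over 2-fold differences numbered 5 in mammospheres, where 39.7% of all genes were past that fold, with 3 higher (19.6% of all genes) and 2 lower (20.1%). They numbered 8 in Comma Dβ cells, where 41.6% of all genes were past it, with 4 higher (16.8%) and 4 lower (24.8%). Without MaSC/basal 3 the counts were 4 and 5, as *Tead2* (0.92 in mammospheres and 0.88 in Comma Dβ cells), *Wwtr1* (-0.97) and *Amotl2* (0.84) came within the limit. Without MaSC/basal 2 they were 6 and 8. Without TMM scaling they were 6 and 7, with *Amotl2* at 1.13 in mammospheres and *Wwtr1* at -0.76 in Comma Dβ cells. Against MaSC/basal 1, the one sorted basal library of its batch, *Ctgf* in mammospheres differed by -0.0014 and *Ankrd1* by 4.09. No MaSC/basal library shared a batch with Comma Dβ cells, so batch and cell type cannot be told apart there. All 8 immediate early genes were over 2-fold lower in both cultures than in MaSC/basal cells, and the fibroblast genes *Col1a1*, *Col1a2*, *Dcn*, *Lum* and *Pdgfra* summed to 1724 and 2041 CPM against 406 to 536 CPM in MaSC/basal libraries, with all 5 detected in both cultures. *Col1a1* and *Col1a2* supplied most of that sum, whereas *Dcn* was at 98.3 and 91.3 CPM against a mean of 188 CPM in MaSC/basal cells, and *Lum* at 48.4 and 0.680 CPM against 14.1 CPM. The part of the immediate early and fibroblast genes in the levels of *Cyr61*, *Ctgf* or *Ankrd1* was not tested.

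**Figure D4:**
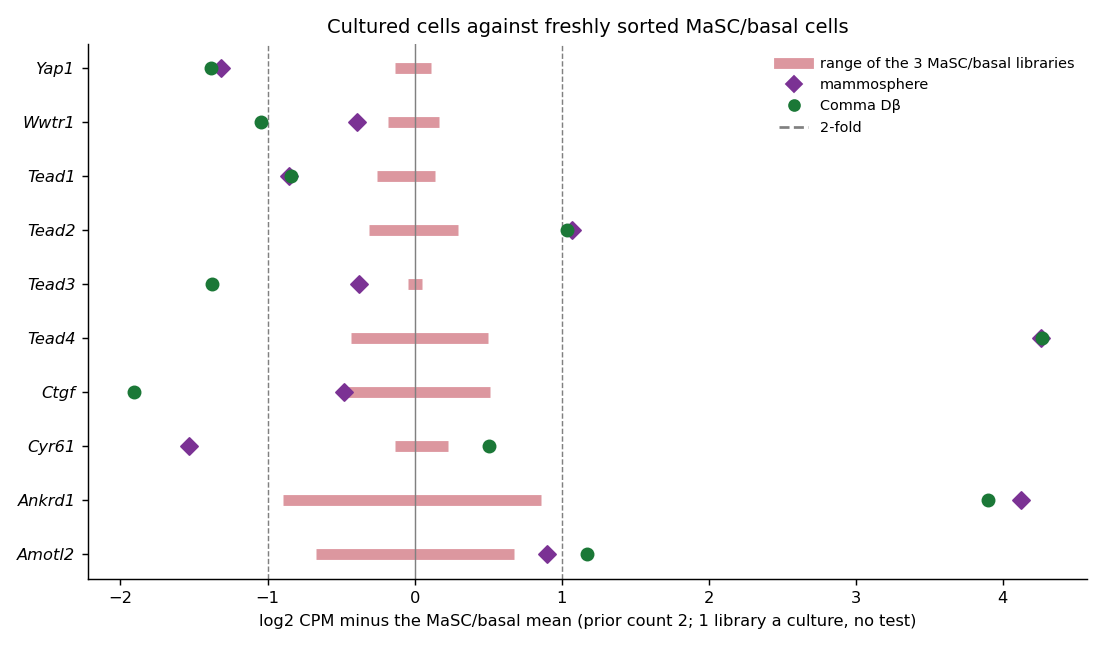
Log2 CPM of each of the 10 genes in the mammosphere (diamond) and Comma Dβ (circle) library minus the mean of the 3 MaSC/basal libraries, whose range is the red bar, with dashed lines at 2-fold. *Tead4* and *Ankrd1* lie about 4 log2 units to the right in both cultures, *Yap1* lies past 2-fold to the left in both, and *Cyr61* lies on opposite sides.

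Upstream of YAP and TAZ, the pathway's kinases and their partners included genes that were higher and genes that were lower in MaSC/basal cells. Of 17 genes of the kinase cassette and its activators, 3 were called higher in MaSC/basal and 4 higher in LP cells, and 4 and 3 in MaSC/basal and ML cells (medians -0.16 and -0.10), beside 57.4% and 58.7% of all genes called. *Wwc1*, the scaffold KIBRA that activates the kinases, was the most luminal, with means of 47.9, 244 and 225 CPM for MaSC/basal, LP and ML (log2 fold change -2.35, SE 0.16, adjusted p = 1.55e-06 by edgeR, and -2.23, SE 0.16, adjusted p = 1.72e-06). *Frmd6*, a FERM-domain protein of the same branch, was highest in MaSC/basal cells, at 243, 114 and 52.0 CPM (1.09 and 2.22, adjusted p = 0.000381 and 3.54e-06 by edgeR). *Lats2*, a kinase that is also a YAP target, was at 52.1, 31.1 and 25.3 CPM (0.74 and 1.04, adjusted p = 0.0244 and 0.00423 by edgeR). The count of 7 between MaSC/basal and LP cells was 4 without MaSC/basal 1, MaSC/basal 2, LP 2 or LP 3. Between LP and ML cells 4 were higher in LP and 1, *Nf2*, higher in ML cells, where 31.8% of all genes were called, and this count of 5 was 3 without TMM scaling or LP 1 and 2 without ML 1 or ML 3. The largest of these were *Frmd6* (1.13, adjusted p = 0.00159 by edgeR), *Mob1b* (0.80, adjusted p = 0.0276) and *Nf2* (-0.58, adjusted p = 0.00512).

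Of 15 junction and polarity regulators, 8 were called higher in MaSC/basal and 3 higher in LP cells, and 9 and 3 in MaSC/basal and ML cells (medians 0.41 and 0.71), beside 57.4% and 58.7% of all genes called. The protocadherins *Dchs1* and *Fat4*, a ligand and receptor pair of the pathway, were at 92.4 and 57.1 CPM in MaSC/basal cells against 1.96 and 9.16 CPM in LP and 1.32 and 5.05 CPM in ML cells. Their log2 fold changes were 5.48 and 2.62 against LP and 6.12 and 3.46 against ML cells (adjusted p = 9.96e-07, 0.000760, 5.48e-07 and 0.000141 by edgeR). *Ptpn14*, a phosphatase that retains YAP in the cytoplasm, was at 580.3, 53.6 and 79.7 CPM (3.44 and 2.87, adjusted p = 4.49e-06 and 1.07e-05 by edgeR). *Crb3*, an apical polarity protein, was the luminal counterpart, at 3.83, 60.4 and 51.6 CPM (-3.97 and -3.75, adjusted p = 5.96e-08 and 5.53e-08 by edgeR). Between LP and ML cells, where 31.8% of all genes were called, 3 were called, all higher in LP (14.3% of all genes), namely *Wtip* (1.66, adjusted p = 0.00117 by edgeR), *Amotl1* (0.81, adjusted p = 0.0179) and *Amot* (0.60, adjusted p = 0.00714), and with the replicate block the count was 5. Of 4 other TEAD cofactors, *Vgll1* and *Vgll2* were below the filter. *Vgll4* did not pass the edgeR test with all libraries (-0.58 for MaSC/basal against LP, 0.076 against ML and 0.66 for LP against ML, adjusted p = 0.0741, 0.815 and 0.0750). It passed between MaSC/basal and LP cells without MaSC/basal 2 or LP 2, and between LP and ML cells by the DESeq2 Wald test and by edgeR without LP 2 or MaSC/basal 3. *Vgll3* was at 16.4 to 19.5 CPM in the MaSC/basal and 0.239 to 2.79 CPM in the luminal libraries (3.16 and 4.67, adjusted p = 0.000341 and 4.29e-05 by edgeR), and at 33.0 and 49.3 CPM in mammospheres and Comma Dβ cells.

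Genes that were higher and genes that were lower in MaSC/basal cells were also found among 19 further known YAP/TAZ targets, of which 18 passed the filter and *Lats2*, *Ptpn14* and *Ajuba* also belong to the preceding lists. Between MaSC/basal and LP cells 11 were called higher in MaSC/basal and 5 higher in LP cells (median 0.94), and between MaSC/basal and ML cells 9 and 4 (median 0.72), beside 57.4% and 58.7% of all genes called. *Igfbp3*, which binds insulin-like growth factors, was at 892 to 1405 CPM in the MaSC/basal and 3.28 to 16.7 CPM in the luminal libraries (log2 fold change 6.93 and 7.32, adjusted p = 2.77e-05 and 1.91e-05 by edgeR). The receptor tyrosine kinase *Axl* averaged 389, 30.1 and 12.9 CPM over the MaSC/basal, LP and ML libraries (3.69 and 4.91, adjusted p = 1.58e-06 and 3.89e-07 by edgeR), *Nt5e*, the ectonucleotidase CD73, 129, 4.32 and 6.90 CPM (4.90 and 4.24), and *Fjx1*, a modifier of Fat and Dachsous proteins in the fly, 31.8, 1.24 and 1.51 CPM (4.64 and 4.42), all called. *Dock5*, a Rac exchange factor, went the other way, at 15.3, 72.9 and 172 CPM (-2.26 and -3.49, adjusted p = 2.49e-06 and 2.65e-07 by edgeR), as did *Myof*, *Gadd45a* and *F3*, all called in both comparisons. Between LP and ML cells 3 were called higher in LP (14.3% of all genes) and 4 higher in ML cells (17.5%), with a median of -0.23, the largest being *Rbms3* (-1.95, adjusted p = 0.00118 by edgeR), *Tgfb2* (1.48, adjusted p = 0.0208) and *Dock5* (-1.24, adjusted p = 0.000964).

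**Figure D5:**
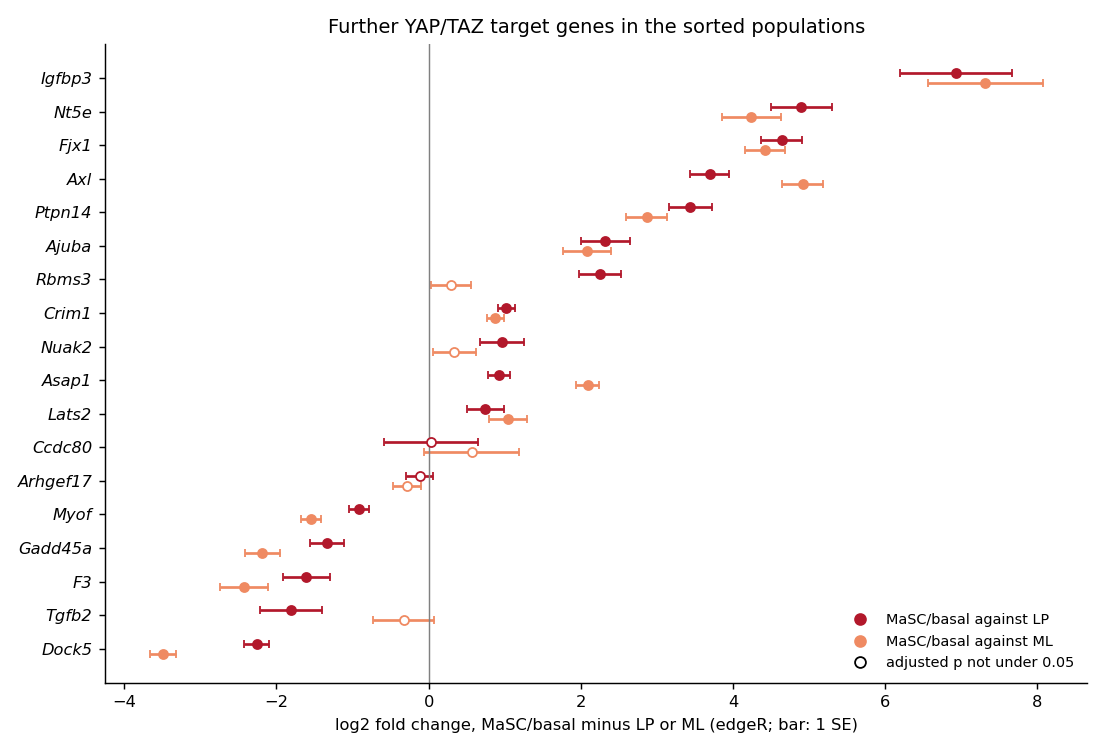
Log2 fold change of 18 further YAP/TAZ target genes, MaSC/basal minus LP (dark) and minus ML (light), with bars of 1 SE and open symbols where the edgeR adjusted p was not under 0.05. *Igfbp3*, *Nt5e*, *Fjx1*, *Axl*, *Ptpn14* and *Ajuba* lie above 2 on the log2 scale in both comparisons, and *Myof*, *Gadd45a*, *F3* and *Dock5* lie below 0 in both.

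Profiles across libraries were compared by the root mean square difference of log2 CPM, each gene centred on its mean over the 11 libraries, as a description. Closest to *Yap1* were *Gtf2f2* (0.16), *Tfdp2* (0.17) and *Rsu1* (0.21), to *Wwtr1* *Gpt* (0.16), *Arhgap42* (0.17) and *Clint1* (0.17), to *Tead1* *Zfp239* (0.21), *Plcg1* (0.21) and *Pxdn* (0.24), to *Tead2* *Npnt* (0.27), *Abhd14b* (0.29) and *Pced1b* (0.31), and to *Tead3* *Idua* (0.20), *Tmc6* (0.21) and *Mark4* (0.23). Closest to *Tead4* were *Sorbs2* (0.43), *Blnk* (0.49) and *Gm14137* (0.49), to *Ctgf* *Palmd* (0.50), *Ptpre* (0.60) and *Maf* (0.62), to *Cyr61* *Garnl3* (0.43), *Fndc7* (0.49) and *Ehbp1* (0.53), and to *Amotl2* *Rilpl2* (0.22), *Bcl9l* (0.30) and *Otud1* (0.34). *Ankrd1* had no close neighbour, the nearest being *Tprg* (1.05), *Serpine2* (1.10) and *Arhgap22* (1.11). None of the 10 genes was among the 3 nearest of another.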

How the data were processed

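RNA-seq libraries of 3 MaSC/basal, 3 LP and 3 ML samples, 1 mammosphere culture and 1 Comma Dβ culture were analysed. The authors mapped 100 bp single-end reads with Rsubread to the mm10 (GRCm38) genome, counted them per Entrez gene by featureCounts, and deposited each library's raw counts beside a gene length. The submitters' processing notes also list CASAVA 1.8.0, edgeR 3.6.2 and limma 3.20.5. Multi-mapping reads and strand are not given in the sources used here. Symbols came from a RefSeq table (25275 of 27179 genes), and all 108 names on the lists used were matched.

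The deposited counts were fitted in R 4.3.3 with edgeR 4.0.16 (quasi-likelihood, TMM, over 0.5 CPM in at least 3 libraries, a mean for each of 5 sample types). The SE is the log2 fold change over the square root of F. Exact permutation tests used log2(CPM + 0.5), and culture differences a prior count of 2. The study used limma voom, run here (limma 3.58.1) as an alternative beside DESeq2 1.42.0, other scalings and filters, the primary libraries alone and each library left out. The fit was tested on simulated data. The paper describes independent samples but the labels do not tie them to animals. The p-values thus set each difference against the spread between these samples, which may be partly technical. Library batch, from the labels, served as the replicate block. Deviations of LP and ML libraries of one batch correlated at 0.32, 0.31 and 0.53, those of MaSC/basal 1 with LP 1 and ML 1 at 0.24 and 0.20, those of MaSC/basal 3 with LP 2 and ML 2 at 0.29 and 0.086, and those of MaSC/basal 2 with LP 2 and ML 2 at -0.12 and 0.018.

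The 10 genes and all lists were chosen with earlier results of these data known. Of each list the 3 genes with the largest called change in a comparison were named, with for each of the 10 genes the 3 nearest profiles. Floors cover counting error only. Promoter windows are from RefSeq (GRCm38.p6), exons from GENCODE.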

Additional observations from a re-analysis of the deposited data

How the results depend on the processing

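Each of the 30 differences of a gene of the 10 between sorted populations was recomputed under 17 alternatives. Of these 510 values 489 stayed on their side of the threshold, 15 lost the call, 6 gained it and none changed sign. The genes called between LP and ML cells numbered 3 to 5 when a library was left out (5 with all libraries) and those over 2-fold 1 to 2. With the library batch of the labels as replicate block the count between LP and ML cells was 6, that between MaSC/basal and LP cells 8 and that between MaSC/basal and ML cells 8, and beyond the changes given beside *Tead1*, *Tead3* and *Amotl2* the block changed no other call. The number over 2-fold in Comma Dβ cells was 5 to 8 when a MaSC/basal library was left out. Without division by gene length log2 of *Wwtr1* over *Yap1* was -0.64 in MaSC/basal, 0.89 in LP, -0.032 in ML, 0.29 in mammosphere and -0.30 in Comma Dβ cells, a constant shift set by the lengths. Leaving a library out reduces the samples and the power. Low counts limit *Ankrd1* in luminal cells, and 1 library each limits the cultures.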
